A study of Rattus norvegicus with 4 samples.

Results

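The clock repressors and output genes Nr1d1, Nr1d2, Dbp, Tef, Per1, Per2, Per3, Bmal1, Clock and Nfil3 were followed in the oxyntic mucosa of the rat stomach, where acid is made, after octreotide LAR. They were chosen by name, as every probe set that the platform annotation of the Affymetrix RAE230A chip gives to one of these symbols. All 10 genes were on the chip, with 14 probe sets, out of 10411 named genes and 15866 probe sets. Octreotide is a long-lived somatostatin analogue, given here as a depot, LAR, that releases it slowly. The treated group held 6 female Sprague-Dawley rats of 8 weeks given octreotide LAR (5 mg per animal), with RNA pooled 2 by 2 onto 3 chips, called pools 1 to 3. The vehicle group held 8 such rats given the LAR vehicle in the matching volume, with RNA pooled onto 1 chip. Both groups are labelled 21 days, and all animals were kept at 12 h light and 12 h dark, fasted overnight and anaesthetised before the mucosa was scraped off. The hour of day at which tissue was taken is not given in the sources used here, for either group, so the group difference and a difference in sampling hour cannot be told apart.

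The circadian clock is a transcriptional feedback loop. CLOCK and BMAL1 bind E-box elements as a dimer and switch on the Per and Cry genes, whose proteins then shut that dimer off. The same dimer drives the nuclear receptors REV-ERB alpha and beta (Nr1d1 and Nr1d2), which repress Bmal1 and Nfil3 through RORE elements, and the output factors DBP and TEF, which activate D-box elements that NFIL3 represses. In rodent peripheral tissues Bmal1 therefore peaks at about the opposite time of day from Nr1d1 and Dbp, and the ratio of such genes is commonly read as a marker of phase. In the mouse stomach, oxyntic cells that make ghrelin carry PER proteins that cycle with the day.

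The promoter windows of the genes on which the results turn are shown because the loop runs through short elements that can lie near such starts. Each runs from 250 bases before to 50 bases after an annotated gene start in the RefSeq tables for the GRCr8 assembly, and all 10 genes had at least 1 window, 12 in all. Capitals mark the E-box CACGTG, its variant the E-prime box CACGTT, the D-box as TTATGTAA or TTATGCAA, and the RORE core as TAGGTCA or TGGGTCA, each searched on both strands, and no matches of different elements overlapped.
Nr1d1 first window (chr10:84231763-84232062, minus strand): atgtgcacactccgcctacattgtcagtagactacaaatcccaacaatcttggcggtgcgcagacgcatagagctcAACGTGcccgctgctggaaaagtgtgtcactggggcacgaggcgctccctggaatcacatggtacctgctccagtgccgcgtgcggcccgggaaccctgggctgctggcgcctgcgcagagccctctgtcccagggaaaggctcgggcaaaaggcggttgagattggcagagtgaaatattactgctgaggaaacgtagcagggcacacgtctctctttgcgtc
Nr1d1 second window (chr10:84229405-84229704, minus strand): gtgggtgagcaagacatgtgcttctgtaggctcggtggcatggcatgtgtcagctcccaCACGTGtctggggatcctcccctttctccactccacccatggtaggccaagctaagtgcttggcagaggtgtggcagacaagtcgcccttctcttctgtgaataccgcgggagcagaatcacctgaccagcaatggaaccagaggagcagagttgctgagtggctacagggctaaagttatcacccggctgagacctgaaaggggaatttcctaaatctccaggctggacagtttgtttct
Nr1d2 (chr15:9954784-9955083, plus strand): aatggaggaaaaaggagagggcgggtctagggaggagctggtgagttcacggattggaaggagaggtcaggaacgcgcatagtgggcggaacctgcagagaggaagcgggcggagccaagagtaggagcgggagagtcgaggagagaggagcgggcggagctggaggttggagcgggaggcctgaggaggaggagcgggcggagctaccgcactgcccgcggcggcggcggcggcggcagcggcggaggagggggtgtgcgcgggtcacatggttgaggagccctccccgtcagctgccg
Per2 (chr9:99496944-99497243, minus strand): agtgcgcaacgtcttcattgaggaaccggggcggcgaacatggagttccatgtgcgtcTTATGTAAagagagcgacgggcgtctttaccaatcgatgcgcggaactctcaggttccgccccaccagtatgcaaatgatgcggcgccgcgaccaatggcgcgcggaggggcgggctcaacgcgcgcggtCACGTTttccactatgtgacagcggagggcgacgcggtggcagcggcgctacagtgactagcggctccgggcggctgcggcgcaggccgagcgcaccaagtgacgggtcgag
Bmal1 (chr1:176766078-176766377, plus strand): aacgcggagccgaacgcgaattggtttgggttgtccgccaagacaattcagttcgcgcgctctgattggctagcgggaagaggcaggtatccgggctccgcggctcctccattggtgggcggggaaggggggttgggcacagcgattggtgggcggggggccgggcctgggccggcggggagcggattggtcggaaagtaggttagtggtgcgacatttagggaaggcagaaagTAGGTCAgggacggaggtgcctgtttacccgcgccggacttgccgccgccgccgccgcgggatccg
The first Nr1d1 window holds an E-prime box, read on the other strand, that begins 174 bases before the gene start, and the second window, at a start further into the gene, holds an E-box 191 bases before it. The Per2 window holds a D-box 192 bases and an E-prime box 62 bases before the start, and the Bmal1 window holds a RORE core 16 bases before it. Among the windows not printed, the letters occurred only in that of Tef, as an E-box 198 bases before the start, and the Nr1d2 window has none of them. Over all 33469 windows in the table, 6.42% held the E-box, 4.83% the E-prime box, 1.73% the D-box and 6.6% the RORE core. These are matches of letters in short windows, and no binding was measured here.

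Each chip gives 1 linear signal intensity per probe set. With 2% trimmed from both ends, the mean signal of every chip was 496.8 to 497.2, and the median signal lay between 223.7 and 233.4 on the treated chips and was 225.85 on the vehicle chip. Per the experiment headers the chips shared a lot, a wash protocol and a hybridisation date and differed in fluidics module, and module and group cannot be told apart for a single vehicle chip. All 12 measured markers of oxyntic epithelium passed the filter on dim probe sets described next, with a summed signal of 280625.4 to 306375.8 on the treated chips and 289002.8 on the vehicle chip. That sum is carried by the most abundant genes and hides Hdc, the histamine-forming enzyme of ECL cells, which had 1074.6 to 1323.2 on the treated chips and 3537.3 on the vehicle chip (limma adjusted p = 0.0044), and the granule protein Chga, with a log2 difference of -0.80 (limma adjusted p = 0.15). Markers of keratinising squamous epithelium, the lining of the rat forestomach, lay above vehicle on every treated chip for 13 of 14 genes on the chip, where 25% of all probe sets tested did so. Of the 12 tested, 6 had a vehicle signal under the filter level and passed through their treated signals, so the 12 of 12 tested that lay above is not read as support. Their summed signal was 10410.7, 7293.5 and 6414.1 on treated pools 1, 2 and 3, against 2182.8 on the vehicle chip, and none was at 0. Smooth muscle markers summed to 55068.1 to 73166.2 on the treated chips and 62812.8 on the vehicle chip, with 1 of 9 above it on all treated chips. Immune cell markers summed to 3687.6 to 4753.7 on treated chips and 3726 on the vehicle chip, and the 2 red blood cell markers on the chip to 1560.7 to 2634.5 on treated chips and 2602 on the vehicle chip. The part of these cells in the clock gene values was not tested.

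Probe sets were tested with limma on log2(signal + 16), and a fold or log2 difference below is on that scale, octreotide LAR minus vehicle. Of the 14 clock probe sets, 8 had a mean signal over the 4 chips of at least 149.7, the 40th percentile of all probe sets, and were tested. They cover 6 genes: Nr1d1, Nr1d2, Per2, Bmal1, Clock and Nfil3. Dbp, Tef, Per1 and Per3 did not pass, nor did 1 of the 3 probe sets of Nr1d2 and 1 of the 3 of Clock. None of the 8 clock probe sets was called at an adjusted p under 0.05, where 8 of the 9520 tested in all were called (0.084%), 7 of them higher and 1 lower. A single one, that of Nr1d1, had an unadjusted p under 0.05, against 4.62% of all probe sets tested. The median log2 difference of the 8 was -0.064, against -0.003 over all probe sets tested. With 1 vehicle chip the spread comes from the treated chips, and an exact permutation of the group labels over 4 chips cannot give a p under 0.25 (one-sided).

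The 2 REV-ERB genes were the clock genes that lay to one side of vehicle: Nr1d1 and the brightest Nr1d2 probe set had a higher signal on every treated chip than on the vehicle chip. Over all probe sets tested, 25% did so, and the count of 2 genes is not read as a result by itself. Nr1d1, the gene of REV-ERB alpha, had signals of 239.1, 429.7 and 499.8 on treated pools 1, 2 and 3, against 173.1 on the vehicle chip. Pools 2 and 3 stood well above vehicle and pool 1 only modestly so, and the groups did not overlap. The treated mean was 389.5 ± 134.9 (SD, n = 3), which is 2.05-fold on the log2(signal + 16) scale. The log2 difference was 1.04 (standard error 0.36, 95% interval 0.26 to 1.82), and it did not pass over all probe sets (limma unadjusted p = 0.0132, adjusted p = 0.949). Without pool 1 the difference was 1.34 and the call was made (limma adjusted p = 0.0081), in a fit that keeps the same vehicle chip and takes its spread from 2 treated chips. Pool 1 was the treated pool lowest in Nr1d1, and leaving it out raised the calls among the 9520 probe sets tested from 8 to 45. In size, with all pools, 0.599% of the probe sets tested had a mean difference as high as that of Nr1d1 or higher. Its treated pools also differed from each other by 1.02 on the log2 scale, a range wider than that of 96.0% of probe sets, whose median range was 0.35. In bulk mucosa more cells of a type and more RNA per cell cannot be told apart. The summed squamous signal given above was also higher than vehicle on all 3 treated chips, and its part in the Nr1d1 values was not tested.

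Nr1d2, the gene of REV-ERB beta, a second receptor that binds the same elements, is read by 3 probe sets. The brightest had signals of 445.8, 431.0 and 621.6 on treated pools 1, 2 and 3, against 350.0 on the vehicle chip. All treated chips were above vehicle, and pool 3 was the highest. Its log2 difference was 0.475 (95% interval -0.093 to 1.04; limma unadjusted p = 0.094, adjusted p = 1), and 5.46% of the probe sets tested had one as high or higher. The second had 204.2, 218.6 and 251.7 on treated pools 1, 2 and 3, against 130.9 on the vehicle chip, a log2 difference of 0.71 (95% interval -0.038 to 1.455; limma unadjusted p = 0.061, adjusted p = 1). The treated chips lay close together here, at a mean of 224.8 ± 24.4 (SD, n = 3). That vehicle signal is under the filter level, so the probe set passed through its treated signals and its separation is not read as support. The third was dim, with 62.4, 32.5 and 6.1 against 38.5 on the vehicle chip, and went both ways. For both REV-ERB genes the highest treated signal on a tested probe set was that of pool 3.

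**Figure D1:**
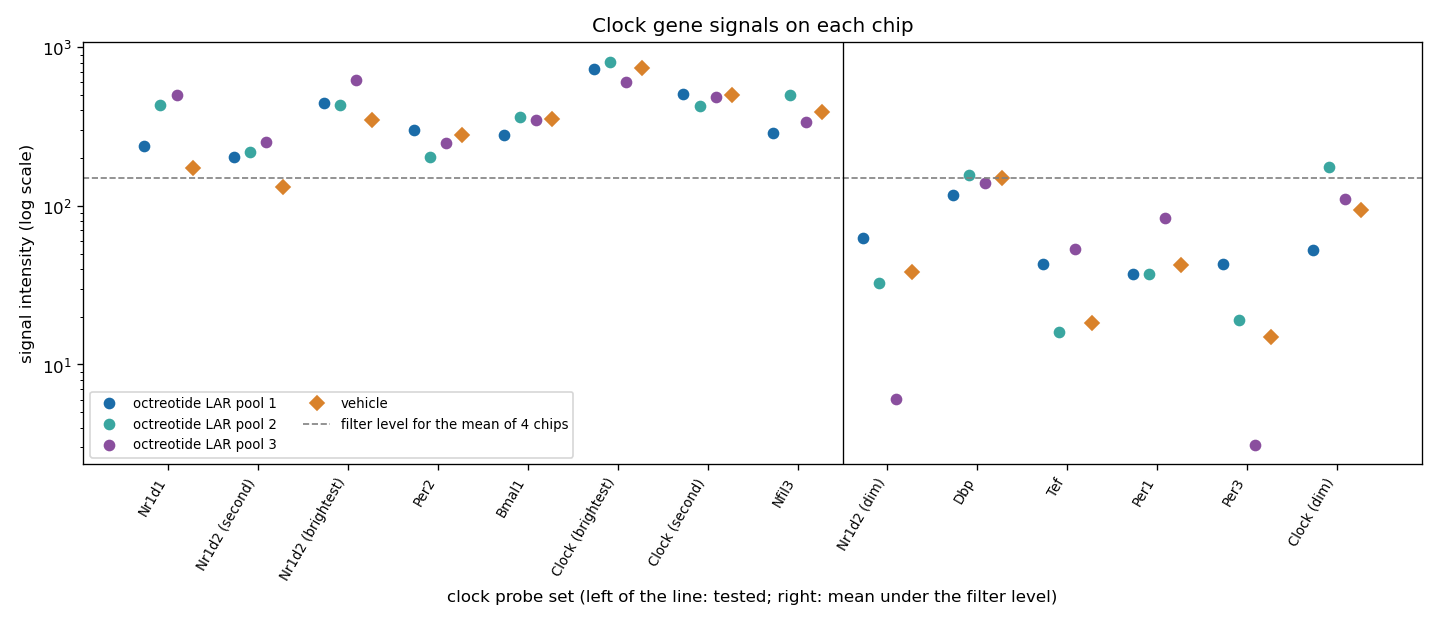
Signal intensity (log axis) of each clock probe set on octreotide LAR pools 1 to 3 (circles) and the vehicle chip (diamond); the dashed line is the filter level of 149.7 for the mean of the 4 chips. The Nr1d1 circles at 239.1 to 499.8 and those of both tested Nr1d2 probe sets sit above their diamonds, while for Per2, Bmal1, Clock and Nfil3 the circles lie on both sides.

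Among the Per genes, whose proteins are the repressors of CLOCK and BMAL1, only Per2 was bright enough to be tested. Per2 had 300.1, 202.3 and 249.7 on treated pools 1, 2 and 3, against 280.2 on the vehicle chip. Pool 1 was slightly above vehicle and pools 2 and 3 below it, so the groups overlapped. The log2 difference was -0.17 (95% interval -0.85 to 0.515; limma unadjusted p = 0.604, adjusted p = 1), an interval wide enough to hold a change of the size seen at the brightest Nr1d2 probe set in either direction. Per1 had 37.2, 37.0 and 84.1 on the treated pools and 42.2 on the vehicle chip. Per3 had 43.2, 19.2 and 3.1, against 14.8. Both were dim and went both ways, and no order is read from signals this low.

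The output factors of the PAR bZIP family, which carry the clock signal to metabolic genes through D-boxes, were not tested either. Dbp, strongly rhythmic in rodent tissues, had 116.3, 156.8 and 140.2 on treated pools 1, 2 and 3, against 150.9 on the vehicle chip. The vehicle value lay within the range of the treated pools, whose mean was 137.8 ± 20.4 (SD, n = 3). Dbp was the member just outside the filter, with a mean over the 4 chips of 141.0, and the tested probe set nearest the level from above was the second of Nr1d2, at 201.4. Tef had 42.9, 16.1 and 53.4, against 18.3 on the vehicle chip, all far under the filter level and on both sides of vehicle. Nr1d1 and Dbp share their activator, and here the first lay above vehicle on every treated chip and the second on 1 of them.

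Nfil3, the repressor of the D-box, had 286.8, 500.2 and 336.2 on treated pools 1, 2 and 3, against 388.2 on the vehicle chip. Pool 2 was the highest of all chips and pools 1 and 3 the lowest. The log2 difference was -0.088 (95% interval -0.75 to 0.57; limma unadjusted p = 0.778, adjusted p = 1), and it was 0.077 without pool 1. Bmal1, the partner of CLOCK and the main target of the REV-ERB receptors, had 277.9, 365.3 and 350.1, against 352.6 on the vehicle chip. Pools 2 and 3 were within a few percent of vehicle and pool 1 was lower. Its log2 difference was -0.096 (95% interval -0.68 to 0.49; limma unadjusted p = 0.729, adjusted p = 1), and it was 0.020 without pool 1. Pools 2 and 3, on which Nr1d1 was highest, differed from vehicle in Bmal1 by 0.049 and -0.010 on the log2 scale.

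Clock, whose transcript cycles little in many rodent tissues, lay close to vehicle on both tested probe sets. Its brightest probe set had 732.4, 812.4 and 603.1 on treated pools 1, 2 and 3, against 736.1 on the vehicle chip, a log2 difference of -0.049 (95% interval -0.54 to 0.44; limma unadjusted p = 0.83, adjusted p = 1). The sign turned without pool 3, at 0.066. The second probe set had 505.8, 424.7 and 485.4, against 497.8, a log2 difference of -0.078 (95% interval -0.58 to 0.42; limma unadjusted p = 0.741, adjusted p = 1). Vehicle lay inside the treated range on both. The 2 probe sets nevertheless disagreed by pool: pool 2 was the highest treated chip on the first and the lowest on the second. The dimmest one had 52.4, 175.5 and 109.8, against 94.4, and went both ways.

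**Figure D2:**
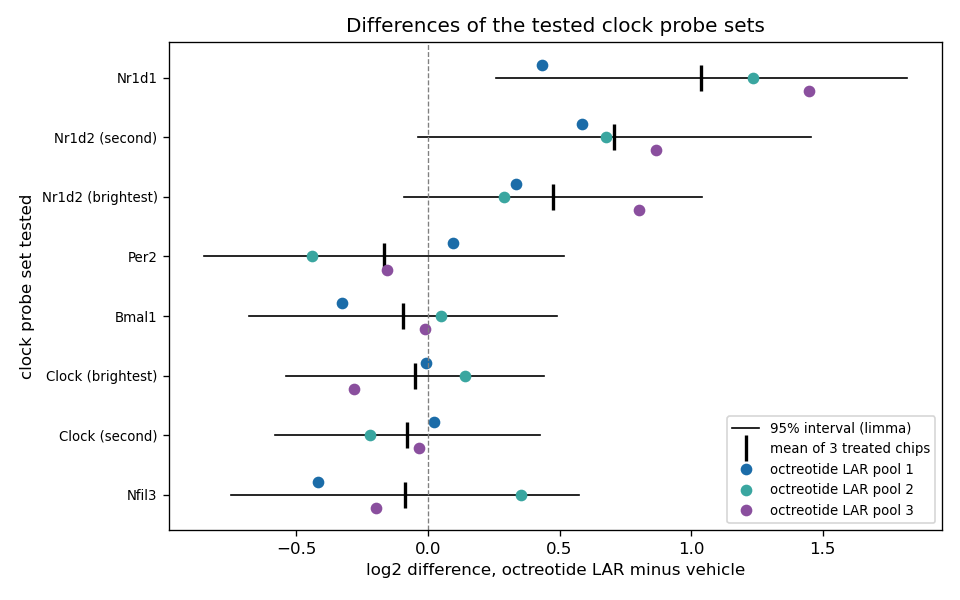
Log2 difference from the vehicle chip (horizontal axis, octreotide LAR minus vehicle) of the 8 tested clock probe sets on pools 1 to 3 (circles), with their mean (bar) and the 95% interval from limma (line). The Nr1d1 interval, from 0.26 to 1.82, is the single one that leaves out 0 before adjustment, and the means of Per2, Bmal1, Clock and Nfil3 lie between -0.17 and -0.049.

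Genes switched on by CLOCK and BMAL1 were then set against the group of Bmal1, Clock and Nfil3 on each chip; of the second group Bmal1 and Nfil3 are the repressed targets of opposite phase, and Clock cycles little. The mean log2 difference of Nr1d1, Nr1d2 and Per2 was 0.29, 0.36 and 0.70 on pools 1, 2 and 3. That of Bmal1, Clock and Nfil3 was -0.25, 0.18 and -0.16, each gene being given by its brightest tested probe set. The first group minus the second was thus 0.54, 0.18 and 0.86, a mean of 0.53 ± 0.34 (SD, n = 3). All 3 values are taken against the same vehicle chip, so this SD is the spread of the treated pools alone. The groups moved apart on pools 1 and 3. On pool 1 all 3 genes of the first group lay above vehicle and all 3 of the second below it. On pool 3 Per2 was the exception, below vehicle with the second group. Pool 2 differed: all 3 genes of the second group lay above vehicle there, together with Nr1d1 and Nr1d2, while Per2 was at its lowest, at -0.44. The signs of Clock depend on the probe set: its second one was at 0.022 on pool 1 and -0.22 on pool 2, where the brightest was at -0.007 and 0.14. With the mean of each gene's probe sets the contrast was 0.57, 0.31 and 0.83 on pools 1, 2 and 3. The contrast rests mostly on the REV-ERB genes, since Per2 lay on the other side of vehicle on 2 of 3 chips. With the dim genes Dbp, Tef, Per1 and Per3 included, the contrast was 0.55, -0.024 and 0.61 on pools 1, 2 and 3, and with Hlf, described below, added to these it was 0.425, -0.34 and 0.48, a mean of 0.19 ± 0.46 (SD, n = 3). The contrast is a description of genes chosen by name and has no p.

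**Figure D3:**
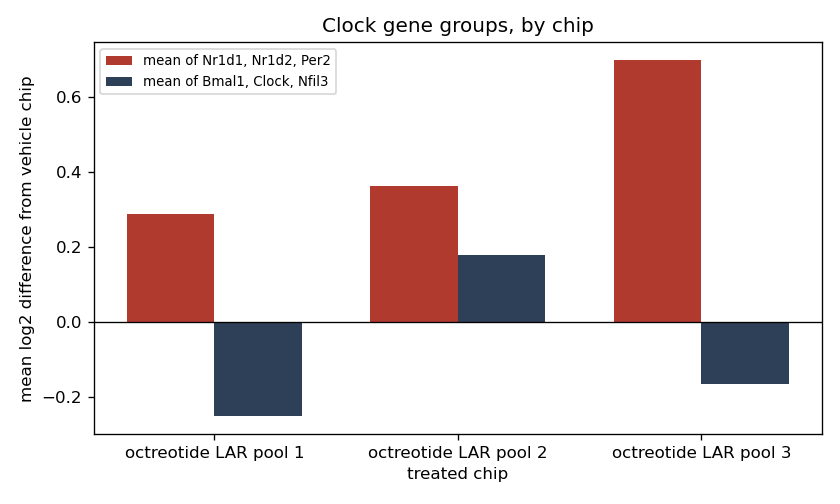
Mean log2 difference from the vehicle chip (vertical axis) on each treated chip, for Nr1d1, Nr1d2 and Per2 (first bar of each pair) and for Bmal1, Clock and Nfil3 (second bar). The first group is above 0 on every pool, at 0.29, 0.36 and 0.70, and the second is below 0 on pools 1 and 3 and at 0.18 on pool 2.

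The other genes of the loop gave no call. Of 22 further clock genes listed, 14 were on the chip and 8 were tested, each by its brightest probe set. None lay above vehicle on all treated chips, 3 lay below it on all and 5 went both ways, where 24% of all probe sets tested lay below on all. Their median log2 difference was -0.145. Cry2, the partner of the PER proteins in repression, had 250.9, 279.4 and 160.9 on treated pools 1, 2 and 3, against 251.8 on the vehicle chip (limma adjusted p = 1). Bhlhe40, a basic helix-loop-helix repressor at E-boxes, had 228.8, 221.9 and 322.4, against 234.0 (limma adjusted p = 1). Kinases that phosphorylate PER or other clock proteins were not called. Csnk1d, a casein kinase, had 1393.3, 1458.3 and 1677.9, against 1691.3, and Csnk2a1, the catalytic subunit of another, had 3466.4, 3086.7 and 3044.7, against 3604.2. Both lay below vehicle on all treated chips on these brightest probe sets, with log2 differences of -0.17 (limma adjusted p = 1 for both). The other tested probe sets of Csnk1d went both ways, at -0.046, -0.049 and -0.106. Of those of Csnk2a1, the brighter went both ways at 0.137 and the dimmer lay below on all treated chips at -0.33. Gsk3b, a further such kinase, and Fbxw11, part of a ubiquitin ligase that marks PER for breakdown, differed by -0.20 and -0.14. Csnk1e, a casein kinase of PER whose mean was under the filter level, had between 13.0 and 102.1 on the treated chips, against 91.6 on the vehicle chip. Cipc, an inhibitor of CLOCK, was below vehicle on all treated chips, by -0.088 on average. Hlf, the third PAR bZIP factor beside DBP and TEF, had 130.9, 30.3 and 145.1, against 226.1 on the vehicle chip. It was lower on every treated chip, most on pool 2, but its mean was under the filter level and it was not tested.

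Genes known in rodent tissues as clock outputs went in both directions. Of 22 listed, 16 were on the chip and 12 tested; 5 lay above and 5 below vehicle on all treated chips, against 25% and 24% of all probe sets tested, and none was called. An unadjusted p under 0.05 was found for 3 of the 12, against 4.62% of all probe sets tested, on a list chosen with earlier results known. Usp2, a deubiquitinase gene driven by CLOCK and BMAL1 in mouse tissues, had 223.0, 127.3 and 246.6 on treated pools 1, 2 and 3, against 428.3 on the vehicle chip. Every treated chip was well below vehicle, pool 2 most of all. Its log2 difference was -1.095 (95% interval -1.90 to -0.29; limma unadjusted p = 0.0118, adjusted p = 0.906), and 0.137% of the probe sets tested had one as low or lower. The dimmer Usp2 probe set had 198.7, 81.2 and 184.4, against 206.2, again lowest on pool 2 (limma adjusted p = 1). Rbm3 and Cirbp, genes of RNA-binding proteins that respond to body temperature, had log2 differences of 0.48 and 0.525, above vehicle on all treated chips (limma unadjusted p = 0.0201 and 0.0912, adjusted p = 1 for both). Alas1, the first enzyme of haem synthesis, had 424.3, 593.9 and 450.3, against 715.4 (limma unadjusted p = 0.0447, adjusted p = 1). Pparg, a nuclear receptor of lipid metabolism, and Por, the electron donor of cytochromes P450, differed by 0.52 and 0.31 and were not called. The dimmer tested Por probe set went both ways, with 167.7, 283.2 and 247.5 against 237.7, a log2 difference of -0.058. Nr1d1 and Usp2, both driven by CLOCK and BMAL1, thus lay on opposite sides of vehicle on all 3 treated chips, and the difference between them was not tested.

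**Figure D4:**
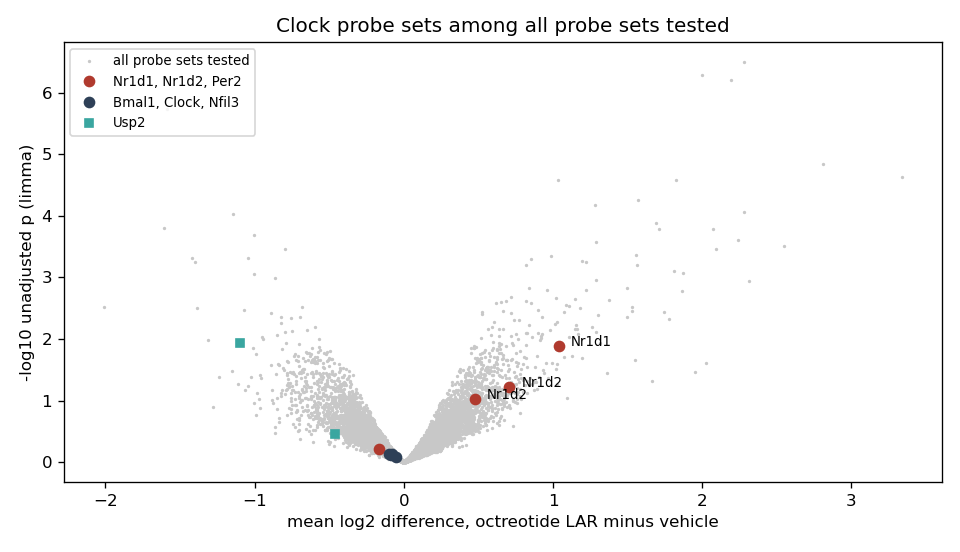
Mean log2 difference (horizontal axis) against -log10 of the unadjusted limma p (vertical axis) for the 9520 probe sets tested, with the tested clock probe sets and both Usp2 probe sets marked. Nr1d1 at 1.04 and the brighter Usp2 probe set at -1.095 lie out on opposite arms, and Per2, Bmal1, Clock and Nfil3 lie near the origin.

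The genes most like Nr1d1 over the 4 chips were found by the Euclidean distance between log2 profiles, each centred on its own mean, among 8072 tested probe sets of other named genes. Over so few chips the measure describes the pattern and no more. The nearest was Maf, a bZIP transcription factor, at a distance of 0.06, with signals of 109.2, 190.7 and 232.5 on treated pools 1, 2 and 3, against 75.2 on the vehicle chip. Next came Mcpt1, a mast cell protease, at 0.31, C9h6orf141 at 0.33, the nuclear factor Nfia at 0.37 and Hmox1, a haem oxygenase, at 0.38. Nfia had 627.0, 933.6 and 947.7, against 327.7 on the vehicle chip, all above the filter level. The vehicle signals of Maf, Mcpt1, C9h6orf141 and Hmox1, at 75.2, 95.6, 136.7 and 128.3, were under that level. Those probe sets passed the filter through their treated signals, which favours a low vehicle signal beside high treated ones. Their nearness to Nr1d1 is therefore not read as support. The tested Nr1d2 probe sets lay at 0.66 and 0.78, and 83 and 256 probe sets of other genes were nearer to Nr1d1 than these. Bmal1 lay at 1.10, Nfil3 at 1.165, Clock at 1.30 and 1.31 and Per2 at 1.49, the farthest of the tested clock probe sets.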

How the data were processed

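Scraped oxyntic mucosa was profiled on Affymetrix RAE230A chips from biotin-labelled cRNA, per the labels' protocols. The authors deposited linear signal intensities, 1 per probe set and sample. How they were computed and scaled is not given in the sources used here. Their trimmed means are equal, as after scaling to 1 target, which would hide a shift of all transcripts. Titles gave the groups; the vehicle sample's source name, unlike its title, names octreotide LAR. No animal contributed to more than 1 chip, as far as the labels say.

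Signals were taken as log2(signal + 16). Probe sets with a mean signal over 4 chips under the 40th percentile, 149.7, were left out, which left 9520. The test was a two-sided moderated fit of 3 treated chips and 1 vehicle chip (limma 3.58.1, R 4.3.3; lmFit, eBayes with a trend), adjusted over all 9520 by Benjamini-Hochberg, with a threshold of 0.05. The vehicle chip is assumed to vary like the treated chips (2 residual and a median of 10.7 prior degrees of freedom). The small number of chips limits precision. Symbols come from the platform annotation, updated by Entrez ID for 12748 of 12783 probe sets that name 1 gene; 312 named several and 2771 were unnamed here. A gene in a list is represented by its brightest probe set.

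The clock genes, lists and tests were chosen with earlier results of these data known. The naming rule covered all clock probe sets, up to 6 genes per list with the smallest unadjusted p, Cry2, Hlf and Bhlhe40. It also covered the 5 genes most like Nr1d1. Some list genes within the rule are given only in counts. Further list genes are named outside it, among them Csnk1e and several glucocorticoid response and immediate early genes. Other probe sets of a named gene were added after their values were seen. Alternatives changed the pseudocount, filter, scaling, trend, probe set rule and treated chips.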

Additional observations from a re-analysis of the deposited data

How the results depend on the processing

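The count of 8 calls over all probe sets was 5 with a pseudocount of 64, 4 with quantile normalization, 5 with chips centred at their 75th percentile, and 0 without the filter (776 at an unadjusted p under 0.05) or without the trend (456). Without single treated pools it lay between 23 and 52. It was within 1.5 times under the other alternatives, which include 10 calls with the filter set on the mean log2 signal, an alternative chosen after seeing the data. The clock probe sets called stayed at 0 except for 1, Nr1d1, without pool 1, so leaving out single pools gave 0 to 1; the lowest adjusted p of a clock probe set under the alternatives with all pools was 0.917. The phase contrast of 0.53 ran from 0.19 to 0.57 with all pools and from 0.36 to 0.70 without single pools. Nr1d1 ran from 0.83 to 1.34 on the log2 scale over 11 alternatives and could not be tested at the 60th percentile. Of the tested clock probe sets, Bmal1 and Nfil3 changed sign without pool 1 and the brightest Clock probe set without pool 3. Without single pools Bmal1 ran from -0.17 to 0.020, Nfil3 from -0.31 to 0.077 and that Clock probe set from -0.14 to 0.066, and the causes were not tested. No paired analysis was possible because the groups share 1 replicate number, with a single vehicle chip. The intervals, set by 4 chips, limit what could be seen at Per2, Bmal1, Clock and Nfil3, and signals under the filter level limit Dbp, Tef, Per1 and Per3.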

Other observations

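Genes of the response to glucocorticoids, hormones that set Per1 and the clocks of peripheral tissues in rodents, were not called either. The list is not one of induced genes alone, since it also holds Hsd11b2 and the receptor gene Nr3c1. Of 17 listed, 16 were on the chip and 12 tested, with 6 above and 1 below vehicle on all treated chips (25% and 24% over all probe sets tested), a median log2 difference of 0.19, against -0.003 over all probe sets tested. Mt2A, a metallothionein, differed by 0.52 and Klf9, a zinc finger factor, by -0.265, and neither was called. Nr3c1, the glucocorticoid receptor, had 749.0, 720.9 and 850.6 on treated pools 1, 2 and 3, against 549.1 on the vehicle chip (limma unadjusted p = 0.0417, adjusted p = 1). Dusp1, a phosphatase gene that responds quickly to stress, had 150.2, 108.7 and 516.4, against 334.3, and Cebpd had 224.2, 205.2 and 409.5, against 199.2. A dimmer Dusp1 probe set, not tested, had 93.4, 69.0 and 71.1, against 12.6. The dimmer Cebpd probe sets, not tested either, went both ways. Pool 3 was the highest chip on the brightest probe sets of Dusp1 and Cebpd, as it was for Nr1d1. Sgk1, a kinase gene, had 1732.4, 1313.6 and 2311.5, against 1347.2, again highest on pool 3. Klf9, Errfi1, Ddit4 and Nr3c1 were also highest on pool 3 by their brightest probe sets, at 3216.3, 586.3, 323.6 and 850.6. The remaining tested genes of the list were highest on pool 1 (Mt2A and Cdkn1a), pool 2 (Tsc22d3 and Hsd11b2) or the vehicle chip (Fkbp5). No pattern by pool is read from the list.

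Immediate early genes, which also respond within minutes to handling, had 6 of 11 tested members above vehicle on all treated chips and none below, to be read against the same shares. By their brightest probe sets the 6 were Ier2, Ier3, Nr4a1, Klf2, Klf4 and Klf6. The dimmer tested probe set of Klf2 lay below vehicle on all treated chips, with 211.3, 227.9 and 264.0 against 275.0, and that of Klf6 above. The dimmer tested probe sets of Jun disagreed, at log2 differences of 0.301, above on all treated chips, and -0.286, below on all. Junb, Jun, Egr1, Zfp36 and Myc went both ways. Of the genes whose mean was under the filter level and which were not tested, Fos and Fosb went both ways. Egr2 and Atf3, also not tested, lay above vehicle on all treated chips. A dimmer Fos probe set lay below vehicle on all treated chips, and a dimmer Egr2 probe set above. The median log2 difference of the 11 was 0.13, 0.30 and 0.47 on pools 1, 2 and 3. Klf4, a factor of differentiated epithelia, had 3094.5, 3685.7 and 3230.6, against 2115.8 (limma unadjusted p = 0.0025, adjusted p = 0.479). Ier2 and Nr4a1 differed by 0.59 and 0.50 (limma unadjusted p = 0.0619 and 0.12, adjusted p = 1 for both). No member was called, and squamous markers were higher on the same chips, which was not tested as a source.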
